A study of Mus musculus with 12 samples.

Results

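The transcripts of 10 regulators of mitochondrial biogenesis and dynamics were followed in mouse kidney. They were the coactivators Ppargc1a and Ppargc1b, the nuclear receptors Ppara, Ppard and Esrra, the transcription factor Nrf1, the mitochondrial DNA factor Tfam, the fusion proteins Opa1 and Mfn2, and the kinase Pink1. Rows were picked by gene name, from a list drawn up with earlier results of these data known, and all 10 of 10 were found among the 22053 rows of the deposited expression table and passed the filter on low values. RNA was sequenced from whole kidney of 12 C57BL/6 wild-type mice, 4 in each of 3 groups. Control mice ate a diet without adenine and were injected with PBS i.p. each week. Mice with chronic kidney disease (CKD) ate 0.2% adenine from 8 to 16 weeks of age and were given the same PBS injections. CKD+Fe mice ate the adenine diet over the same weeks and were injected i.p. each week with iron dextran at 0.5 g/kg. The adenine diet is a dietary model of tubular injury, and the labels give each mouse a number, no batch and no sex. Mice are given below in the order 012811, 012822, 042301 and 042310 for control, 021320, 022301, 110310 and 120102 for CKD, and 042702, 062910, 111710 and 122320 for CKD+Fe.

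Mitochondrial biogenesis is switched on by the coactivators encoded by Ppargc1a and Ppargc1b, which bind no DNA themselves and act through partners such as the receptors of Ppara, Ppard and Esrra and the factor of Nrf1. These partners turn on nuclear genes of fatty acid oxidation and the respiratory chain as well as Tfam, whose product packages and transcribes the mitochondrial genome. Mitochondria also fuse and divide, with Mfn2 acting on the outer and Opa1 on the inner membrane, and Pink1 marks damaged mitochondria for removal. The proximal tubule, which makes up much of the kidney cortex, is rich in mitochondria and burns fatty acids.

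Expression was deposited as FPKM, which scales the fragments of a gene to its transcript length and to the reads mapped in its library. In these values most of the 13148 genes tested were higher in CKD than in control mice, with a median difference of 0.50 on the log2 scale, and the same median of 0.50 stood between CKD+Fe and control mice. After median-of-ratios rescaling, which sets the typical gene equal between mice, these medians were 0.012 and 0.017. Changes are therefore given both as deposited and after rescaling. Mice 042301, 110310 and 042702, 1 in each group, stood apart, with 596, 806 and 442 genes that differed 2-fold or more from their group, where the other mice had between 42 and 225. Kidney identity was checked with marker genes. Proximal tubule transcripts were present in every mouse, and their summed level over 10 genes was between 3987 and 5732 FPKM in control, between 956 and 1721 FPKM in CKD, and between 969 and 2132 FPKM in CKD+Fe mice.

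Pink1 was the most abundant of the 10 transcripts in every mouse and Ppargc1b the least abundant in every mouse. In control mice the mean level fell in the order Pink1 (186 ± 31.0 FPKM, SD, n = 4), Esrra, Mfn2, Tfam, Opa1, Ppard, Ppargc1a, Ppara, Nrf1 and Ppargc1b (1.17 ± 0.370 FPKM). FPKM are per length, so genes can be set side by side. Pink1 and Esrra did not overlap each other or the genes below them in control mice, and Ppargc1b lay apart at the foot of the order. The neighbours from Mfn2 down to Nrf1 overlapped in range. In CKD mice Esrra, at 29.1 ± 5.54 FPKM, came down to the level of Mfn2 at 27.2 ± 3.65 FPKM, and their ranges then overlapped. Nrf1, at ninth place in control mice, stood at place 7 in CKD and CKD+Fe mice, where its range overlapped those of Ppargc1a and Ppara.

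**Figure D1:**
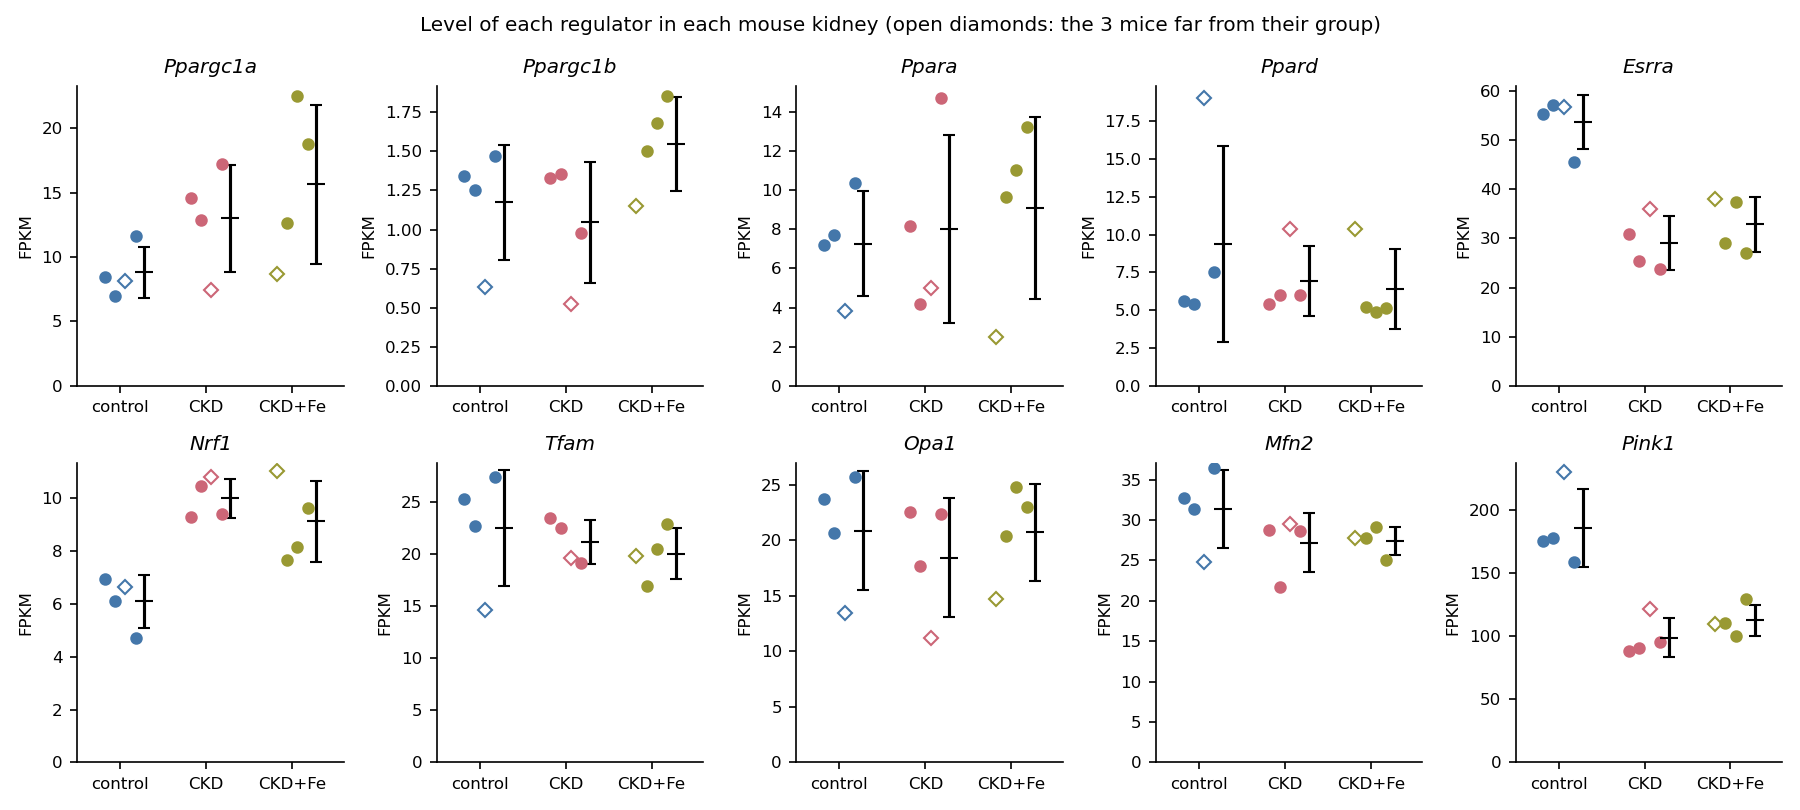
FPKM of the 10 regulators (vertical axes, from 0) in each of the 12 mice, by group, with the group mean and SD (n = 4) beside the points. Open diamonds are the 3 mice that stood apart (042301, 110310 and 042702). Esrra and Pink1 are lower and Nrf1 is higher in all CKD and CKD+Fe mice than in all control mice, and the open diamonds have the highest Ppard and the lowest Opa1 of each group.

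In CKD against control mice, Esrra and Pink1 fell, Nrf1 rose in the values as deposited, and the other 7 regulators did not pass the threshold in either direction. Thus 1 of 10 regulators was called higher, where 54.6% of all genes tested were, and 2 of 10 were called lower, where 13.3% were. The median log2 fold change of the 10 was -0.14, against 0.50 for all genes. After rescaling none was called higher (28.8% of all genes were) and 5 were called lower (29.3% of all genes were), namely Esrra, Pink1, Mfn2, Tfam and Opa1. With quantile normalization none was called higher (23.3% of all genes) and 5 were called lower (25.6% of all genes), namely Esrra, Pink1, Mfn2, Ppard and Ppargc1b. With array quality weights 2 were higher (60.8%) and 3 lower (16.7%), and without the 3 mice that stood apart 2 were higher (59.5%) and 3 lower (15.7%), with Ppargc1a and Mfn2 added in both.

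The promoters of Esrra and Pink1, the 2 regulators that fell under each scaling, are shown from RefSeq (build GRCm38.p6, 250 bases before to 50 bases after the start site, read along the gene). Both genes are on the minus strand. The Esrra promoter lies at chr19:6921759-6922058 and the Pink1 promoter at chr4:138326247-138326546, and capitals mark a match to 1 of 5 motifs searched on both strands.
Esrra: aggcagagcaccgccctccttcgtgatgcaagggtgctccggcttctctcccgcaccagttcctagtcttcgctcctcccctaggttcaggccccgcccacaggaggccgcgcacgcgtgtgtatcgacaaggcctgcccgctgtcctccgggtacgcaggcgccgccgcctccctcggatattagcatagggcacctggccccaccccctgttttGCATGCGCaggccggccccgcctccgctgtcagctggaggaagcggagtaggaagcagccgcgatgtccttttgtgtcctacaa
Pink1: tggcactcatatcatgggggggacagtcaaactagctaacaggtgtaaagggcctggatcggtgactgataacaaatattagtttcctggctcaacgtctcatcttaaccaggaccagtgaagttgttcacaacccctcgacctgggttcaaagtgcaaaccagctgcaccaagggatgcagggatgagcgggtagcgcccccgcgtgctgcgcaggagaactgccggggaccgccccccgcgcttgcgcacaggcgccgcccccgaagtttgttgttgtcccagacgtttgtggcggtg
The capitals in Esrra are GCATGCGC, the core bound by NRF1, the factor encoded by Nrf1. None of the 5 motifs was found in the Pink1 promoter. GCATGCGC was also found in the promoters of Opa1 (chr16:29579084-29579383, plus strand) and Ppara (chr15:85735526-85735825, plus strand), where the matches of both strands overlap, and CCGGAAG, the core bound by ETS factors including GABP, was found in the promoter of Tfam (chr10:71237995-71238294, minus strand). The 30 bases around each match are given to show how alike the sites of Opa1 and Ppara are.
Opa1: tggctccccGCGCATGCGCatgtcatccgc
Ppara: ggctcggtgGCGCATGCGCgcggactaggg
Tfam: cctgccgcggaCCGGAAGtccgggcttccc
GCATGCGC was in 2.71% and CCGGAAG in 8.86% of all 32851 promoters of the same length. AAGGTCA, the core bound by ERR receptors (4.72% of all promoters), TGACGTCA, the site of CREB (1.79%), and CACGTG, an E box (7.15%), were in none of the regulators' promoters, of which 9 of 10 regulators had an entry and Ppargc1b did not. These matches describe letters in a window of 300 bases and were not tested for binding.

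Esrra (ENSMUSG00000024955, GRCm38 chromosome 19, 6910977 to 6921813, minus strand) encodes the estrogen-related receptor alpha, an orphan nuclear receptor and a main partner of the coactivators at respiratory chain genes. Its level was 55.3, 57.1, 56.8 and 45.4 FPKM in control mice. It was 30.9, 25.5, 36.0 and 23.9 FPKM in CKD mice. No CKD mouse reached the lowest control mouse, with means of 29.1 ± 5.54 and 53.7 ± 5.53 FPKM (SD, n = 4). Esrra had a log2 fold change of -0.87 (standard error 0.16, limma adjusted p = 0.0003), and it was -1.44 after rescaling and -1.0 with quantile normalization. Of all genes tested 10.5% were lower in each CKD mouse than in any control mouse. Leaving out single mice moved it between -0.98 and -0.79, with adjusted p up to 0.00148. Of its 4387 exon bases, 91 are shared with the microRNA gene Mir6990 on the same strand and 73 with Trmt112 on the opposite strand.

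Pink1 (ENSMUSG00000028756, chromosome 4, 138313409 to 138326307, minus strand) encodes the kinase that gathers on damaged mitochondria and recruits parkin. Its level was 176, 178, 230.2 and 159 FPKM in control mice. It was 88.6, 90.5, 121 and 95.3 FPKM in CKD mice, all of them below all control mice, as for 10.5% of all genes tested. The mean was 186 ± 31.0 FPKM in control and 98.9 ± 15.1 FPKM in CKD mice, a log2 fold change of -0.90 (standard error 0.15, limma adjusted p = 0.000139). The log2 fold change of Pink1 was -1.47 after rescaling and -0.62 with quantile normalization, and it lay between -1.0 and -0.79 when single mice were left out. Of the 2673 exon bases of Pink1, 69 are shared with Mir7019 and 110 with Gm27646, microRNA genes on the same strand. Of 10 proximal tubule markers 9 were lower in CKD mice (median log2 fold change -1.73) and none higher. By contrast 8 of 8 macrophage and 6 of 6 fibroblast markers were higher (median log2 fold changes 3.34 and 2.43). Of 5 collecting duct markers 4 were lower and none higher, and of 4 thick ascending limb markers 1 was higher and none lower. Of all genes 13.3% were called lower and 54.6% higher. The part of these shifts in the fall of Esrra and Pink1 was not tested, and in whole tissue fewer cells of a type and less RNA per cell cannot be told apart.

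Nrf1 (ENSMUSG00000058440, chromosome 6, 30047988 to 30153458, plus strand) encodes nuclear respiratory factor 1, a DNA-binding activator of nuclear genes for mitochondrial proteins. Its level was 6.95, 6.12, 6.63 and 4.69 FPKM in control mice. It was 9.30, 10.4, 10.8 and 9.40 FPKM in CKD mice, all above all control mice, as for 44.6% of all genes tested. The means were 9.99 ± 0.752 FPKM in CKD and 6.10 ± 0.997 FPKM in control mice. This log2 fold change of 0.64 (standard error 0.15, limma adjusted p = 0.00176) is 0.14 above the median of all genes. It was 0.13 after rescaling (adjusted p = 0.442) and -0.04 with quantile normalization (adjusted p = 0.839) where its sign turned.

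Tfam (ENSMUSG00000003923, chromosome 10, 71225464 to 71238280, minus strand), which textbooks give as a target of Nrf1, was not called as deposited. Its level ranged from 14.7 to 27.4 FPKM in control mice, with 14.7 FPKM in mouse 042301, and from 19.1 to 23.5 FPKM in CKD mice. As deposited Tfam had a log2 fold change of -0.06 (limma adjusted p = 0.786). Relative to the typical gene Tfam was lower, with a log2 fold change of -0.61 after rescaling (adjusted p = 0.00949) and -0.41 with quantile normalization (adjusted p = 0.062).

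Ppargc1a (ENSMUSG00000029167, chromosome 5, 51454250 to 51567726, minus strand), the inducible coactivator PGC-1 alpha, varied widely between the mice of a group. It was 8.46, 6.94, 8.14 and 11.6 FPKM in control mice. It was 14.6, 12.8, 7.42 and 17.2 FPKM in CKD mice, where the lowest value was that of mouse 110310, and the groups overlapped. The log2 fold change of 0.48 (standard error 0.28) did not pass the threshold (limma adjusted p = 0.144). Without mouse 110310 it was 0.71 (adjusted p = 0.0298), without all 3 mice that stood apart 0.68 (adjusted p = 0.0154), and after rescaling of all mice -0.05 (adjusted p = 0.899). As deposited it lay 0.02 below the median of all genes.

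Ppargc1b (ENSMUSG00000033871, chromosome 18, 61298136 to 61400431, minus strand) encodes the related coactivator PGC-1 beta. It was low in every mouse, between 0.635 and 1.47 FPKM in control and between 0.525 and 1.36 FPKM in CKD mice. The log2 fold change was -0.09 (limma adjusted p = 0.664) as deposited, -0.40 after rescaling (adjusted p = 0.0682) and -0.87 with quantile normalization (adjusted p = 0.00100). At this level log2(FPKM + 1) understates changes. Within each mouse Ppargc1a exceeded Ppargc1b by a mean of 2.95 ± 0.532 on the log2 scale in control mice and 3.66 ± 0.396 in CKD mice (SD, n = 4), a difference of 0.71 that did not pass (exact two-sided permutation p = 0.0857, adjusted p = 0.257).

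Neither of the 2 fatty acid receptors was called in CKD mice as deposited. Ppara (ENSMUSG00000022383, chromosome 15, 85734983 to 85802819, plus strand), the main driver of fatty acid oxidation genes in tubule and liver, was 7.22, 7.72, 3.81 and 10.3 FPKM in control mice. It was 8.16, 4.17, 4.99 and 14.7 FPKM in CKD mice, where the highest and lowest mice of the group were 120102 and 022301. The log2 fold change was 0.05 with a standard error of 0.44 (limma adjusted p = 0.928, 95% interval from -0.89 to 0.99). An interval this wide does not show that Ppara was alike in the groups.

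Ppard (ENSMUSG00000002250, chromosome 17, 28232754 to 28301469, plus strand), the more widely expressed receptor, was 5.64, 5.39, 19.0 and 7.51 FPKM in control mice. It was 5.39, 6.02, 10.4 and 6.0 FPKM in CKD mice and 10.4, 5.20, 4.86 and 5.18 FPKM in CKD+Fe mice. The high value of each group was that of the mouse far from the rest. In these same mice (042301, 110310 and 042702) Opa1 and Ppargc1b were the lowest of their group, and Ppara and Ppargc1a were each the lowest in 2 of the 3 groups. Mouse 042301 also had the highest collecting duct level of its group. It had 1159 FPKM summed over 5 markers, against 310.1 to 429 FPKM in the other control mice. Of this sum 964 FPKM was Aqp2, and Slc26a4 went the other way, lowest of the control mice at 15.8 FPKM. Mouse 110310 had 783 FPKM of 6 fibroblast markers against 379 to 389 FPKM in the other CKD mice. There Pdgfra went the other way (13.4 FPKM against 23.7 to 28.0 FPKM), while the other fibroblast markers were highest. Mouse 042702 had the lowest collecting duct level of its group, at 202 FPKM. The part of these in the levels of Ppard was not tested. In CKD against control mice Ppard had a log2 fold change of -0.26 (limma adjusted p = 0.515), which was 0.12 without mouse 042301. After rescaling it was -0.76 (adjusted p = 0.0644), and -0.60 when the 3 mice that stood apart were also left out (adjusted p = 0.00193). With quantile normalization it was -0.92 (adjusted p = 0.0289).

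Neither fusion gene passed the threshold as deposited. Opa1 (ENSMUSG00000038084, chromosome 16, 29579334 to 29654884, plus strand) was 23.7, 20.7, 13.4 and 25.7 FPKM in control mice. It was 22.5, 17.7, 11.2 and 22.3 FPKM in CKD mice, a log2 fold change of -0.18 (standard error 0.24, limma adjusted p = 0.522). Mfn2 (ENSMUSG00000029020, chromosome 4, 147873599 to 147904704, minus strand) was 32.8, 31.4, 24.8 and 36.4 FPKM in control mice. It was 28.7, 21.7, 29.5 and 28.7 FPKM in CKD mice, a log2 fold change of -0.20 (standard error 0.14, limma adjusted p = 0.227). Relative to the typical gene both were lower, with log2 fold changes after rescaling of -0.73 for Opa1 (adjusted p = 0.0215) and -0.76 for Mfn2 (adjusted p = 0.000944). With quantile normalization Opa1 was not called (-0.54, limma adjusted p = 0.0939) and Mfn2 was (-0.45, adjusted p = 0.0256). For Mfn2 the call was also made without the 3 mice that stood apart (log2 fold change -0.34, adjusted p = 0.0309).

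**Figure D2:**
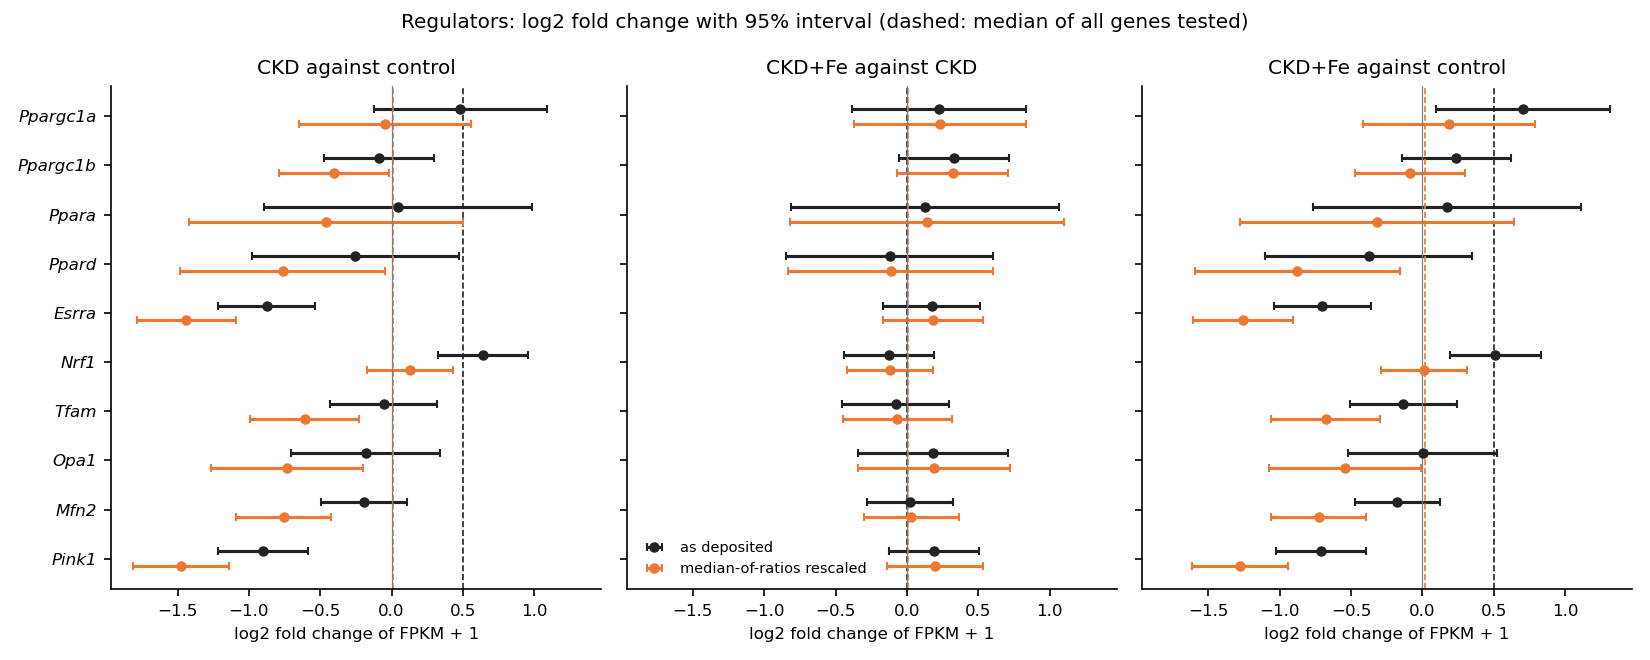
Log2 fold change of FPKM + 1 (horizontal axis) with its 95% interval for each regulator in the 3 comparisons, as deposited (black) and after median-of-ratios rescaling (orange). Dashed lines are the medians of all genes tested, 0.50 as deposited for both comparisons with control. Esrra and Pink1 lie left of 0 under both scalings against control, Nrf1 lies beside the dashed line of its own scaling, and all intervals of CKD+Fe against CKD cross 0.

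Ratios within a mouse do not depend on how mice are scaled to each other, so the fusion genes were set against Dnm1l, which encodes the fission GTPase. Dnm1l itself rose in CKD as deposited, from 15.3 ± 1.10 to 24.9 ± 6.19 FPKM (log2 fold change 0.63, limma adjusted p = 0.00517), and was 0.09 after rescaling. The ratio of Opa1 to Dnm1l was 1.51, 1.30, 0.986 and 1.62 in control mice. It was 0.769, 0.658, 0.711 and 0.810 in CKD mice, and 0.652, 0.852, 0.875 and 0.873 in CKD+Fe mice. Opa1 transcripts thus exceeded Dnm1l transcripts in 3 of 4 control mice and in none of the 8 mice on adenine, and all of these 8 mice were below all control mice. On the log2 scale the mean ratio differed from control by -0.86 in CKD and by -0.72 in CKD+Fe mice, each with an exact two-sided permutation p of 0.0286, the smallest that 4 mice against 4 allow. Over all 15 tests of ratios the adjusted p was 0.143, so no ratio passed the threshold, and 0.143 is the smallest value this family of tests gave. With 0.0286 as the floor, an adjusted p under 0.05 needed most of the 15 tests to reach that floor together. The missing call therefore does not show that the ratios were alike.

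The ratio of Mfn2 to Dnm1l was 2.09, 1.97, 1.82 and 2.30 in control mice. It was 0.981, 0.809, 1.88 and 1.04 in CKD mice, where mouse 110310 stood among the control values, and 1.24, 1.16, 1.03 and 0.952 in CKD+Fe mice. The log2 difference from control was -0.87 in CKD (exact two-sided permutation p = 0.0571, adjusted p = 0.214) and -0.90 in CKD+Fe (exact two-sided permutation p = 0.0286, adjusted p = 0.143). In mouse 110310 Dnm1l was 15.7 FPKM, against 26.8 to 29.3 FPKM in the other CKD mice. The ratios of Ppara to Ppard and of Ppargc1a to Nrf1 differed by -0.20 to 0.59 on the log2 scale in the 3 comparisons, with exact two-sided permutation p from 0.4 to 0.8.

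**Figure D3:**
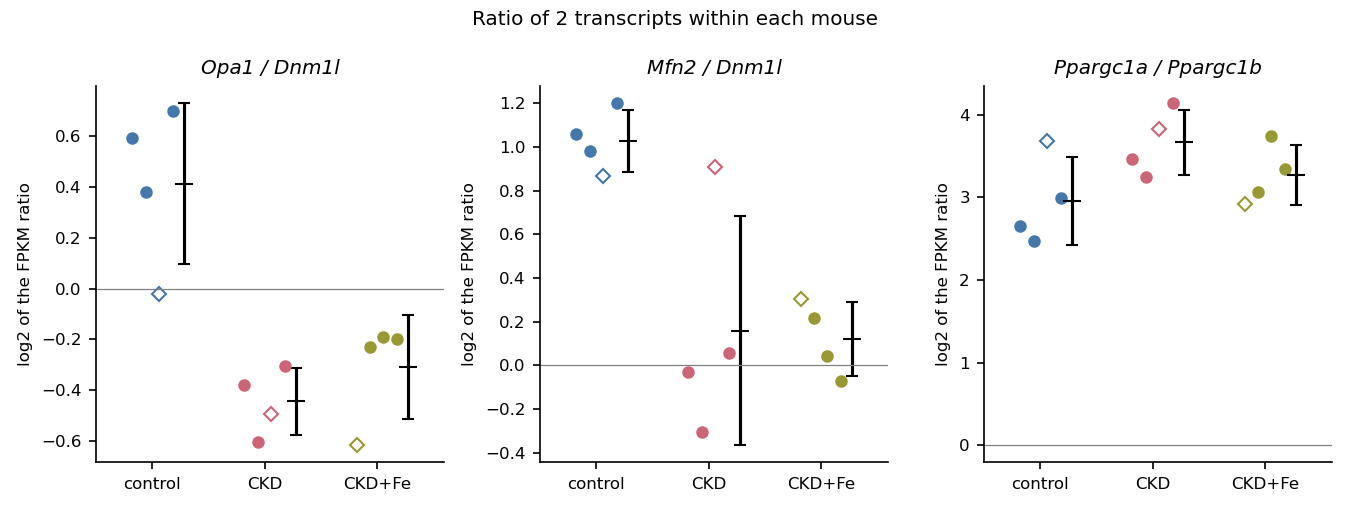
Log2 ratio of the FPKM of Opa1 to Dnm1l, Mfn2 to Dnm1l and Ppargc1a to Ppargc1b (vertical axes) in each mouse, by group, with the group mean and SD (n = 4). Open diamonds are the 3 mice that stood apart. Opa1 to Dnm1l lies below 0 in all CKD and CKD+Fe mice, and the 1 CKD mouse among the control values of Mfn2 to Dnm1l is 110310.

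The other genes of the pathway were described by lists. Among 16 coregulators and partner receptors, 9 were called higher and none lower in CKD against control mice (median log2 fold change 0.57), close to the 54.6% called higher and the median of 0.50 of all genes. After rescaling 5 were higher and 2 lower, where 28.8% of all genes were higher and 29.3% lower. With quantile normalization 1 was higher and 3 were lower, where 23.3% of all genes were higher and 25.6% lower. Pprc1, the third member of the coactivator family, had the largest rise, from 3.83 ± 0.706 to 10.3 ± 3.78 FPKM (log2 fold change 1.18, limma adjusted p = 0.000327), and it was also higher after rescaling, at 0.70 (adjusted p = 0.0134). Thus of the 3 coactivators only Pprc1 passed the threshold in CKD mice under both scalings, and no test of the difference between them was made.

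Genes that act downstream of the regulators were mostly lower. Of 17 nuclear-encoded respiratory chain and citrate cycle genes 16 were called lower and none higher (median log2 fold change -0.96), where 13.3% of all genes were lower. After rescaling 17 were lower (29.3% of all genes), and with quantile normalization 13 were (25.6% of all genes). Sdhb, a subunit of complex II, fell the most, from 463 ± 89.8 to 195 ± 39.5 FPKM. Of 15 targets of the Ppara receptor 9 were lower and 1 was higher, with the largest fall in Ehhadh, a peroxisomal oxidation enzyme (281 ± 71.4 to 50.8 ± 14.8 FPKM), and the rise in Cyp4a14, a fatty acid hydroxylase (14.2 ± 12.4 to 63.8 ± 44.8 FPKM), which has close copies that could share its reads and which was not called after rescaling (adjusted p = 0.0754). Ppara itself was not called in the same mice. Of 10 protein import and chaperone genes 5 were lower and none higher, led by the chaperonin Hspd1 (212 ± 47.9 to 83.0 ± 19.3 FPKM). After rescaling 10 of these genes were lower, and with quantile normalization 6 were. The fall of the proximal tubule markers given above moved with these lists too, and its part in them was not tested.

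The lists nearest to Tfam, Opa1, Mfn2 and Pink1 are read against 54.6% of all genes called higher and 13.3% called lower. Of 11 genes of mitochondrial DNA maintenance and transcription 4 were lower, led by the protease Lonp1 (59.5 ± 4.51 to 34.8 ± 8.64 FPKM), and 1 was higher, the DNA polymerase Polg (18.0 ± 6.53 to 28.1 ± 9.07 FPKM), whose log2 fold change of 0.62 was 0.07 after rescaling. Of 7 fusion and inner membrane genes 4 were lower, led by the cristae protein Chchd3 (147 ± 11.3 to 85.4 ± 9.82 FPKM), and none was higher. Of 7 fission genes tested 2 were higher, led by Dnm1l, and 2 were lower, led by Mtfp1 (17.3 ± 2.83 to 8.53 ± 2.91 FPKM). Of 13 mitophagy and quality control genes 4 were higher, led by the receptor Optn (4.86 ± 0.776 to 11.2 ± 1.97 FPKM), and 3 were lower, led by Park7 (406 ± 80.4 to 202 ± 49.1 FPKM). After rescaling 28.8% of all genes were higher and 29.3% lower. Of the 11 mitochondrial DNA genes 10 were then lower and none higher, and of the 7 fusion and inner membrane genes 6 were lower and none higher. No fission gene was then higher and 3 were lower, and 1 mitophagy gene was higher and 7 were lower.

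**Figure D4:**
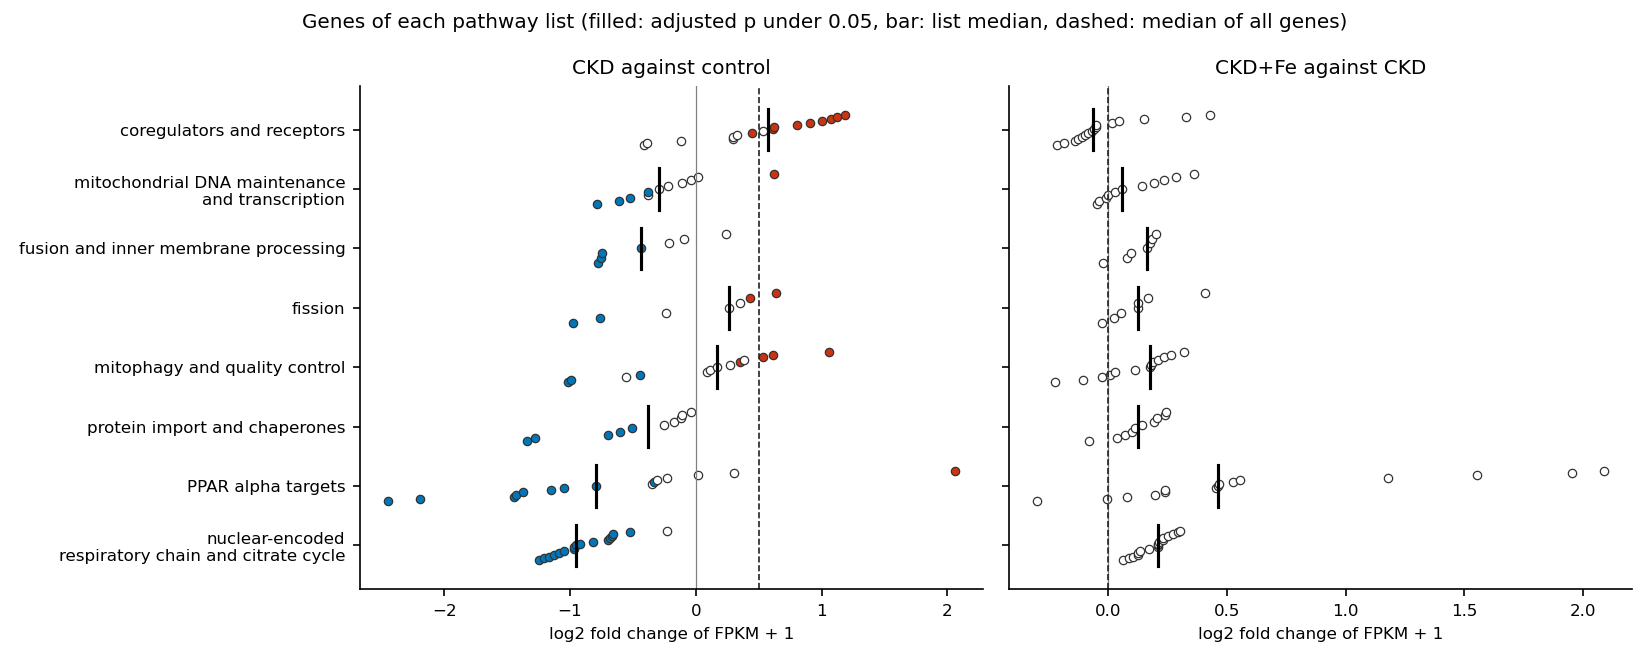
Log2 fold change of FPKM + 1 (horizontal axis) of the genes of each pathway list in CKD against control and in CKD+Fe against CKD mice. Filled points passed an adjusted p under 0.05 (red higher, blue lower), black bars are list medians, and the dashed line is the median of all genes tested. Respiratory chain and citrate cycle genes lie left of 0 in CKD, and no point is filled for iron dextran in CKD.

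Iron dextran was compared with PBS among mice on adenine. No regulator was called in CKD+Fe against CKD mice in either direction by limma. In the fit of all 12 mice without weights none had an unadjusted p under 0.05. Among all genes 1 was called higher (0.00761%) and none was called lower (0%), and the unadjusted p was under 0.05 for 431 higher genes and 359 lower genes. All 10 regulators overlapped between the groups, where 1.35% of all genes were higher and 1.09% lower without overlap. No regulator was called with array quality weights (0.692% of all genes higher, 0.525% lower) or without the 3 mice that stood apart (0.394% higher, 0.247% lower). The unadjusted p was under 0.05 for 2 regulators with array weights, where 1180 genes were higher and 1349 lower at that p. Without the 3 mice it was for 1 regulator, where 1051 genes were higher and 1542 lower. Fold changes of the regulators ran from -0.13 for Nrf1 to 0.33 for Ppargc1b on the log2 scale, with limma adjusted p from 0.885 to 0.999.

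Ppargc1b had the largest difference, with 1.15, 1.51, 1.68 and 1.85 FPKM in CKD+Fe mice against 1.33, 1.36, 0.525 and 0.980 FPKM in CKD mice (95% interval of the log2 fold change from -0.06 to 0.71). For Pink1, at 110, 111, 100.3 and 129 FPKM in CKD+Fe mice, the log2 fold change was 0.19 (95% interval from -0.13 to 0.51). Esrra was 38.0, 29.1, 37.3 and 27.0 FPKM, a log2 fold change of 0.17 (95% interval from -0.17 to 0.51). Both intervals hold 0, and both hold differences of up to 0.51. Without the 3 mice that stood apart the log2 fold change of Pink1 was 0.30 (95% interval from 0.05 to 0.55, limma adjusted p = 0.183). With all 12 mice the interval was narrowest for Mfn2, from -0.28 to 0.32, and widest for Ppara, from -0.81 to 1.07.

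Ppargc1a in CKD+Fe mice was 8.72, 12.6, 22.5 and 18.8 FPKM, and the 2 highest values of all 12 mice were those of mice 111710 and 122320. These 2 mice also had the highest sums of adipocyte transcripts, with 8.52 and 19.4 FPKM over 6 markers against 0.356 to 5.46 FPKM in the other 10 mice. Mouse 111710 exceeded control mouse 012822 only for Ucp1 and Cidea. Mouse 012822 was higher for Adipoq (1.27 against 1.23 FPKM), Plin1 (0.802 against 0.225 FPKM), Cidec (1.97 against 0.719 FPKM) and Lep. Mouse 111710 had Ucp1, the marker of brown fat, at 4.76 FPKM, where no other mouse exceeded 0.441 FPKM. Without these 2 mice the log2 fold change of Ppargc1a in CKD+Fe against CKD was -0.23 in place of 0.22. Leaving out the 2 highest Ppargc1a values was bound to lower it, so this drop does not bear on adipocyte RNA. Control mouse 012822, at 5.46 FPKM of these markers, had the lowest Ppargc1a of all 12 mice, at 6.94 FPKM. CKD mouse 120102, at 0.901 FPKM of the markers, had 17.2 FPKM of Ppargc1a. The part of adipocyte RNA in the level of Ppargc1a was not tested.

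None of the genes on the pathway lists was called in CKD+Fe against CKD mice as deposited, after rescaling or with quantile normalization. Among the other settings run, up to 3 of the targets of Ppara were called higher, and no gene of the other lists was called. With single mice left out 0 of these targets were called. Of all genes 0.692% were called higher with array quality weights and 0.394% without the 3 mice that stood apart. All 17 respiratory chain and citrate cycle genes had a positive log2 fold change, between 0.06 and 0.30, and the median of the 15 targets of Ppara was 0.46. The median of all genes was -0.0005. Also positive were 10 of 10 proximal tubule markers (median 0.43) and 5 of 5 collecting duct markers (median 0.72). Of the thick ascending limb markers 2 of 4 were positive, and of the tubule injury markers 0 of 4. The part of these marker shifts in the lists was not tested. The 1 gene called among all genes as deposited, named after its value was seen, was Fabp1, the liver fatty acid binding protein. Fabp1 was at 28.5, 16.4, 73.5 and 46.1 FPKM in CKD+Fe and 3.41, 2.44, 0.891 and 5.65 FPKM in CKD mice (log2 fold change 3.30, limma adjusted p = 0.0284). Ppara itself was 2.48, 9.66, 11 and 13.2 FPKM in the same CKD+Fe mice, a log2 fold change of 0.13 against CKD.

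In CKD+Fe against control mice, which shares its control mice with CKD against control and its CKD+Fe mice with CKD+Fe against CKD, Esrra and Pink1 were lower, and Nrf1 and Ppargc1a were higher as deposited. As deposited 2 of 10 regulators were called higher (54.4% of all genes were) and 2 were called lower (11% of all genes were). Esrra was 32.9 ± 5.63 FPKM in CKD+Fe mice (log2 fold change -0.70, limma adjusted p = 0.00171) and Pink1 112 ± 12.1 FPKM (log2 fold change -0.71, adjusted p = 0.00094), both without overlap, as for 9.85% of all genes lower in CKD+Fe mice. Their log2 fold changes after rescaling were -1.26 and -1.27. After rescaling none was higher (27.7% of all genes were) and 5 were lower (27.5% of all genes were), with Mfn2 at -0.73, Tfam at -0.68 and Ppard at -0.88 on the log2 scale. With quantile normalization none was higher (19.8% of all genes) and 6 were lower (22.6% of all genes), these 5 and Ppargc1b. With array quality weights 2 were higher (62.9%) and 3 lower (15.1%), and without the 3 mice that stood apart 2 were higher (58%) and 2 lower (12.6%).

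Nrf1 was higher in all CKD+Fe mice, as were 50.4% of all genes, at 11, 7.67, 8.15 and 9.64 FPKM (log2 fold change 0.51, limma adjusted p = 0.00778), which is 0.01 above the median of all genes. After rescaling its log2 fold change was 0.01 (adjusted p = 0.951), and it was -0.16 with quantile normalization. Ppargc1a was called higher as deposited (log2 fold change 0.71, limma adjusted p = 0.0407), though mouse 042702, at 8.72 FPKM, overlapped the control mice. The call was lost after rescaling (0.19, adjusted p = 0.593) and without mice 111710 and 122320 (0.25, adjusted p = 0.489). It was also lost when 1 of 6 single mice was left out, with adjusted p of 0.0751 without 012811, 0.105 without 012822, 0.073 without 042301, 0.0513 without 022301, 0.134 without 111710 and 0.109 without 122320. Tfam, Opa1, Mfn2, Ppara, Ppard and Ppargc1b were not called as deposited, with limma adjusted p from 0.252 to 0.996.

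The genes whose profile over the 12 mice was most like that of 2 regulators were found by the root mean square distance of log2(FPKM + 1), centred on each gene's own mean. Nearest to Pink1 were Brap (distance 0.111), Ndufv1 (0.116), Ndufb9 (0.117), Mrpl22 (0.119) and Gapdh (0.124). Of these Ndufv1 and Ndufb9 encode subunits of complex I and Mrpl22 a mitochondrial ribosomal protein. Nearest to Nrf1 were Mknk2 (distance 0.0940), Txndc5 (0.0943), Dhx8 (0.0950), Snrnp40 (0.0994) and Pum3 (0.103), with log2 fold changes in CKD against control between 0.48 and 0.64. These are descriptions over the same 12 mice, which share the shift of the typical gene.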

How the data were processed

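RNA was sequenced from whole kidney of 12 mice, 1 library per mouse, with single-end reads of 50 cycles. Per the labels and the submitters' processing notes, reads were handled with bcl2fastq 2.19, STAR 2.5.2 and Cufflinks 2.1.1 on GRCm38, and the annotation release is not given in the sources used here. What the authors deposited is FPKM, scaled to transcript length and mapped reads, and 30 values in 17 genes marked as failed estimates were treated as missing. No read counts were analysed, depth was estimated only roughly from the lowest FPKM values (0.0390 to 0.0551 FPKM for 1 read on 1 kilobase), and the count test of the study was replaced by limma.

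The 10 members and all gene lists were chosen with earlier results of these data known. From each pathway list the genes with the largest rise and largest fall in CKD against control past the threshold are named, together with the 5 genes nearest in pattern to the member with the largest rise and to the member with the largest fall. Values were analysed as log2(FPKM + 1), a scale that understates changes of low genes, with limma 3.58.1 in R 4.3.3 (eBayes with a variance trend, all 12 mice in 1 fit). The fit covered the 13148 genes that reached 1 FPKM in 4 or more mice. P values were two-sided, the Benjamini-Hochberg adjustment ran over every gene in the fit, and 0.05 was the threshold. The fit was tested on simulated data. Single members were also compared by an exact permutation test over 70 arrangements, and 5 within-mouse ratios in 3 comparisons by the same test with adjustment over 15 tests (scipy 1.17.1). Alternatives were a pseudocount of 0.1, other filters, median-of-ratios rescaling, quantile normalization, 2 groups per fit, array weights, no variance trend, an adjusted p threshold of 0.5 and each mouse left out in turn. Settings without 2 mice with adipocyte transcripts, or without 3 mice after rescaling, were added after the data were seen. Promoters (250 bases before to 50 after a start site) are RefSeq sequences of GRCm38.p6. The mitochondrially encoded genes, Cox4i1 and Acta1 were not analysed here.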

Additional observations from a re-analysis of the deposited data

Results flagged for a closer look

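Within a group of 4 mice, 1 value stood apart from the other 3 by a gap past Dixon's 95% critical value, as a share of the group's range, in 5 cases. Chance alone gives this in about 1 of 20 groups, and 30 groups (10 regulators in 3 groups) were examined. Ppard gave 3 of the 5 cases, with 19.0 FPKM in control mouse 042301, 10.4 FPKM in CKD mouse 110310 and 10.4 FPKM in CKD+Fe mouse 042702, and the gap was 0.845, 0.874 and 0.938 of the range. Esrra was 45.4 FPKM in control mouse 042310, below the other control mice. Mfn2 was 21.7 FPKM in CKD mouse 022301, below the other CKD mice.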

How the results depend on the processing

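No paired analysis was possible because the groups share no replicate numbers. Esrra and Pink1 were called lower in both comparisons with control under each setting run, and no regulator was called in CKD+Fe against CKD under any. For the values below that moved or turned, the cause was not tested.

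The number of regulators called higher in CKD against control was 1, and it was 2 with adjusted p under 0.5, with array weights and without the 3 mice that stood apart, 0 after median-of-ratios rescaling, with quantile normalization and without the 3 mice after rescaling, and 1 to 2 without single mice. The number called lower was 2, and it was 3 with adjusted p under 0.5, with array weights and without the 3 mice, 5 after rescaling, 5 with quantile normalization and 7 without the 3 mice after rescaling. In CKD+Fe against control 2 were higher, and this was 3 with adjusted p under 0.5, 1 with no filter, 1 without the 2 mice with adipocyte transcripts, 0 after rescaling, with quantile normalization and without the 3 mice after rescaling, and 1 to 2 without single mice. The number lower was 2, and it was 4 with adjusted p under 0.5, 3 with array weights, 5 after rescaling, 6 with quantile normalization and 6 without the 3 mice after rescaling.

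Log2 fold changes turned as follows. In CKD against control, Ppargc1a was -0.045 after rescaling and -0.082 with quantile normalization, Ppara was -0.46, -0.62, -0.042 without the 3 mice and -0.59 without them after rescaling, and Nrf1 was -0.040 with quantile normalization. In CKD+Fe against CKD without the 2 mice with adipocyte transcripts, Ppargc1a was -0.23, Ppara -0.42, Ppard 0.12 and Opa1 -0.039. In CKD+Fe against control, after rescaling, with quantile normalization and without the 3 mice after rescaling, Ppargc1b was -0.085, -0.56 and -0.15, Ppara was -0.32, -0.46 and -0.12, and Opa1 was -0.54, -0.37 and -0.57. There Nrf1 was -0.16 with quantile normalization and -0.0238 without the 3 mice after rescaling, Opa1 was -0.038 without the 3 mice, and without the 2 mice with adipocyte transcripts Ppara was -0.38 and Opa1 -0.22.

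Log2 ratios turned without the 3 mice for Ppargc1a to Nrf1 in CKD against control (0.014) and Mfn2 to Dnm1l in CKD+Fe against CKD (0.15). Without the 2 mice with adipocyte transcripts Ppara to Ppard was -0.66 against CKD and -0.34 against control, Ppargc1a to Nrf1 was -0.13 and -0.33, and Mfn2 to Dnm1l was 0.10 against CKD.

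Leaving out single mice gave these ranges where a sign turned. In CKD against control they were -0.37 to 0.028 for Opa1, -0.27 to 0.27 for Ppara, -0.44 to 0.12 for Ppard, -0.22 to 0.044 for Ppargc1b, -0.24 to 0.047 for Tfam, -0.37 to 0.70 for Ppara to Ppard and -0.38 to 0.087 for Ppargc1a to Nrf1. In CKD+Fe against CKD they were -0.079 to 0.063 for Mfn2, -0.027 to 0.33 for Opa1, -0.10 to 0.58 for Ppara, -0.35 to 0.065 for Ppard, -0.0025 to 0.46 for Ppargc1a, -0.19 to 0.21 for Mfn2 to Dnm1l and -0.11 to 1.07 for Ppara to Ppard. In CKD+Fe against control they were -0.19 to 0.15 for Opa1, -0.064 to 0.63 for Ppara, -0.10 to 1.39 for Ppara to Ppard and -0.072 to 0.53 for Ppargc1a to Nrf1.

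Read depth was estimated only roughly, from the lowest values of genes with 1 listed transcript, where 1 read on 1 kilobase was worth 0.0390 to 0.0551 FPKM across the mice. The estimate depends on the window of low values searched, and counting error was not computed from it for low transcripts such as Ppargc1b.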
